A study of Mus musculus with 57 samples.

Results

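The 6 genes described here, Grm2, Grm3, Grm4, Grm5, Grm7 and Grm8, encode metabotropic glutamate receptors. They were chosen by name, as the rows of the deposited expression table whose Ensembl identifier maps to these mouse symbols, and they are 6 of the 18088 genes that the table lists. All 6 passed the filter on low values (3 or more libraries at 10 or above), as did 18026 genes in all. RNA was sequenced from dissected prefrontal cortex of C57BL/6J mice at postnatal day 25, after 3 weeks of drug given through the mother's milk from postnatal day 3 to day 24. The 12 groups crossed lithium, fluoxetine or vehicle with genotype and sex. The heterozygous mice (HT) carried 1 copy of the Shank3 delta C allele, which alters a scaffold protein of the excitatory synapse, and wild-type mice (WT) carried none. All groups shared the labelled tissue, the age and exposure through the mother, so that the dose each pup took in is not known. The labels do not name litters, and the p-values treat mice as independent.

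Metabotropic glutamate receptors are G protein-coupled receptors that sense glutamate and change the excitability of the cell or the release of transmitter over a slower time than ionotropic receptors. They fall into 3 classes by sequence and signalling. Grm5 belongs to group I, which sits mainly at the edge of the postsynaptic density, couples through Gq proteins to phospholipase C and calcium release, and is tied by Homer proteins to the Shank scaffold. Grm2 and Grm3 form group II, which lowers cyclic AMP through Gi/o proteins; Grm2 is mainly neuronal and presynaptic, whereas Grm3 is also made by astrocytes. Grm4, Grm7 and Grm8 belong to group III, which is mainly presynaptic, couples to Gi/o and restrains release; Grm7 lies in the active zone and responds only to high glutamate. Grm6, the retinal member of group III, was not analysed here.

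The 56 libraries used held between 22984556 and 35969254 reads assigned to genes, with a median of 28507290. Of the 12 groups, 9 had 5 libraries, WT lithium females and HT lithium males had 4, and HT vehicle males had 3. The gene total of Shank3 overlapped between genotypes under vehicle, with 5748 to 8248 normalised counts in HT mice and 6022 to 8496 in WT mice (log2 fold change 0.05 ± 0.09, limma adjusted p = 0.915). Under lithium HT against WT mice had 0.34 ± 0.09 (adjusted p = 0.214). Females had 7366 to 10320 in HT and 7178 to 8310 in WT mice there, and males 9949 to 11200 and 6565 to 8588. How many of all genes part as in these males was not counted. A total over the gene does not check an allele that alters part of it. Markers of excitatory neurons of the cortex were abundant in every library, as the labelled tissue requires, with Slc17a7 between 28650 and 61300 normalised counts and Tbr1 between 1405 and 4757. Markers of the olfactory bulb, which adjoins the prefrontal cortex, varied far more, with Cdhr1 between 72.8 and 6577 and Doc2g between 98.6 and 4584. An olfactory level was computed for each library as the mean over 5 bulb markers (Eomes, Doc2g, Cdhr1, Th and Trh) of the value divided by that gene's mean over libraries. Its group means ran highest in WT fluoxetine females (2.28 ± 2.09, SD, n = 5) and lowest in HT lithium males (0.145 ± 0.071, n = 4). Whether the same tissue was taken from each mouse was not tested. Markers of the choroid plexus summed to 52730 normalised counts in HT vehicle female 1, against at most 344.7 in the groups other than its own. HT lithium female 5 stood apart by its low mean level of mitochondrial genes. Leaving both out ended none of the receptor calls. Those calls were in WT mice alone and both libraries are HT, so the fold changes called could not move. Only the spread estimated over all groups could. Because these are bulk samples, fewer cells of a type and less RNA per cell cannot be told apart.

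The 6 genes lie at separate loci on 5 chromosomes of the GRCm38 build and differ widely in size. Grm2 (ENSMUSG00000023192) spans 13.0 kb of chromosome 9 on the minus strand, at chr9:106643095-106656082. Grm3 (ENSMUSG00000003974) spans 239.6 kb at chr5:9485541-9725170, minus strand, and Grm4 (ENSMUSG00000063239) spans 99.0 kb at chr17:27422387-27521403, minus strand. The other 3 are among the long neuronal genes. Grm5 (ENSMUSG00000049583) covers 550.7 kb at chr7:87584168-88134907 on the plus strand. Grm7 (ENSMUSG00000056755) covers 921.6 kb at chr6:110645581-111567230 on the plus strand, and Grm8 (ENSMUSG00000024211) covers 860.1 kb at chr6:27275119-28135178 on the minus strand. Their transcripts differ in base composition too: G and C made up 61.7% of Grm4 and 56.9% of Grm2, against 47.6% of Grm3, 47.2% of Grm7, 42.5% of Grm5 and 41.9% of Grm8.

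The promoters of 4 of the 6 genes are in the RefSeq table used (GRCm38.p6), and they are shown because their base composition sets these receptors apart from most promoters before any level is compared. Each sequence runs 5′ to 3′ on the gene's own strand from 250 bases before the start of the RefSeq entry to 50 bases after it, and capitals mark the GC box GGGCGG on either strand. For Grm3 that start lies upstream of the gene span given above, and the window holds none of that span. The windows are chr9:106656060-106656359 (minus strand) for Grm2, chr5:9725303-9725602 (minus) for Grm3, chr6:110645348-110645647 (plus) for Grm7 and chr6:28135097-28135396 (minus) for Grm8; for Grm7 and Grm8 the entry nearest to the annotated start was taken.
Grm2: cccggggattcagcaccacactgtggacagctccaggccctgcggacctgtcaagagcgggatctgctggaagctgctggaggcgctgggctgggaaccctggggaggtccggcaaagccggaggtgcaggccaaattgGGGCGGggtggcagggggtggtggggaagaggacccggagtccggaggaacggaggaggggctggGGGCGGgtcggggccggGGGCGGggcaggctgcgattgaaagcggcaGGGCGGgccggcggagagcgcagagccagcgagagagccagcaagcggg
Grm3: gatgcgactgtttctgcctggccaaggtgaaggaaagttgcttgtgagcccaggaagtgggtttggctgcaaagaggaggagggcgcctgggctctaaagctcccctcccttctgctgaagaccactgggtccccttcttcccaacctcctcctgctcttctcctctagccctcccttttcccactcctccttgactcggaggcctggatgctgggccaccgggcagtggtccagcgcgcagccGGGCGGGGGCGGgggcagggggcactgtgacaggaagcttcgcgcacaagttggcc
Grm7: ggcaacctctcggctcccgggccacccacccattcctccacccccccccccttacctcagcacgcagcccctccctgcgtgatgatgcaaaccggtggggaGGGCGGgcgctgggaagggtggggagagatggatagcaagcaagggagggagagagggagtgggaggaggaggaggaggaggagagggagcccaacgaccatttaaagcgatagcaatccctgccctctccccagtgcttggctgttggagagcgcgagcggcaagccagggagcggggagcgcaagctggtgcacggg
Grm8: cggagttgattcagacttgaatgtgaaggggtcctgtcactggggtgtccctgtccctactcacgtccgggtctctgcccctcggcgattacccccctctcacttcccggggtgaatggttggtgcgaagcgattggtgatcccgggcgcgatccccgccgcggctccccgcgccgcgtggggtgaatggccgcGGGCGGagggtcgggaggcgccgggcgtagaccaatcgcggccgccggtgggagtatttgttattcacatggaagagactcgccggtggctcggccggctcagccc

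All 4 were richer in G and C than the median of 52.7% over 32817 mouse promoters of the same length: 72.0% for Grm2, 67.0% for Grm8, 66.7% for Grm7 and 63.7% for Grm3. The Grm8 promoter held 33 CpG dinucleotides, that of Grm2 held 22, that of Grm7 15 and that of Grm3 11, against a median of 7. A GC box was found in all 4, and in 35.6% of all promoters. The Grm2 window held 4 of them, whereas 10.7% of promoters held 3 or more; Grm3 had 2 and Grm7 and Grm8 had 1 each. Searched on both strands, none of the 4 windows held the core of the cAMP response element (TGACG, in 20.8% of promoters), a T-box core (GGTGTGA, in 3.98%), the NeuroD form of the E-box (CAGATG, in 17.2%) or a TATA box (TATAAA, in 13.6%). A match of letters is a description and not a binding site.

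Per kilobase of the longest transcript, the receptors were ordered Grm5, Grm3, Grm2, Grm7, Grm4 and Grm8. Median levels over the 56 libraries were 703.9 normalised counts per kb for Grm5, 596.4 for Grm3, 446.3 for Grm2, 388.3 for Grm7, 203.1 for Grm4 and 113.5 for Grm8. Neighbours in this order had overlapping ranges in each case, so the order is one of medians. Grm5 was above Grm3 in 45 of 56 libraries, Grm3 above Grm2 in 44, and Grm2 above Grm7 in 45. Grm7 was above Grm4 in 52 libraries. The level per kb rests on the longest annotated transcript, and isoforms that are used in part would move it.

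In normalised counts, which keep the gene's own length, Grm5 ran from 3667 to 7091 with a median of 5664. Grm2 ran from 1600 to 3598 (median 2103), Grm3 from 1040 to 2368 (median 1818) and Grm7 from 1097 to 2065 (median 1635). Grm4 and Grm8 were the lowest, with ranges of 613.5 to 2307 (median 935.6) and 373.5 to 782.9 (median 544.8). Grm4, a presynaptic receptor best known from cerebellar granule cells, had the widest range, 3.76-fold, and Grm7 the narrowest, 1.88-fold. Counting error accounts for a small share of that spread, since it gives a coefficient of variation of 4.32% at the median of Grm8 and 1.35% at that of Grm5. Within groups the median coefficient of variation was 21.1% for Grm4, 12.9% for Grm2, 12.4% for Grm8, 11.5% for Grm3, 10.7% for Grm5 and 8.06% for Grm7. The group with the highest coefficient was WT fluoxetine females for all except Grm8, whose highest was in HT fluoxetine males (23.1%).

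**Figure D1:**
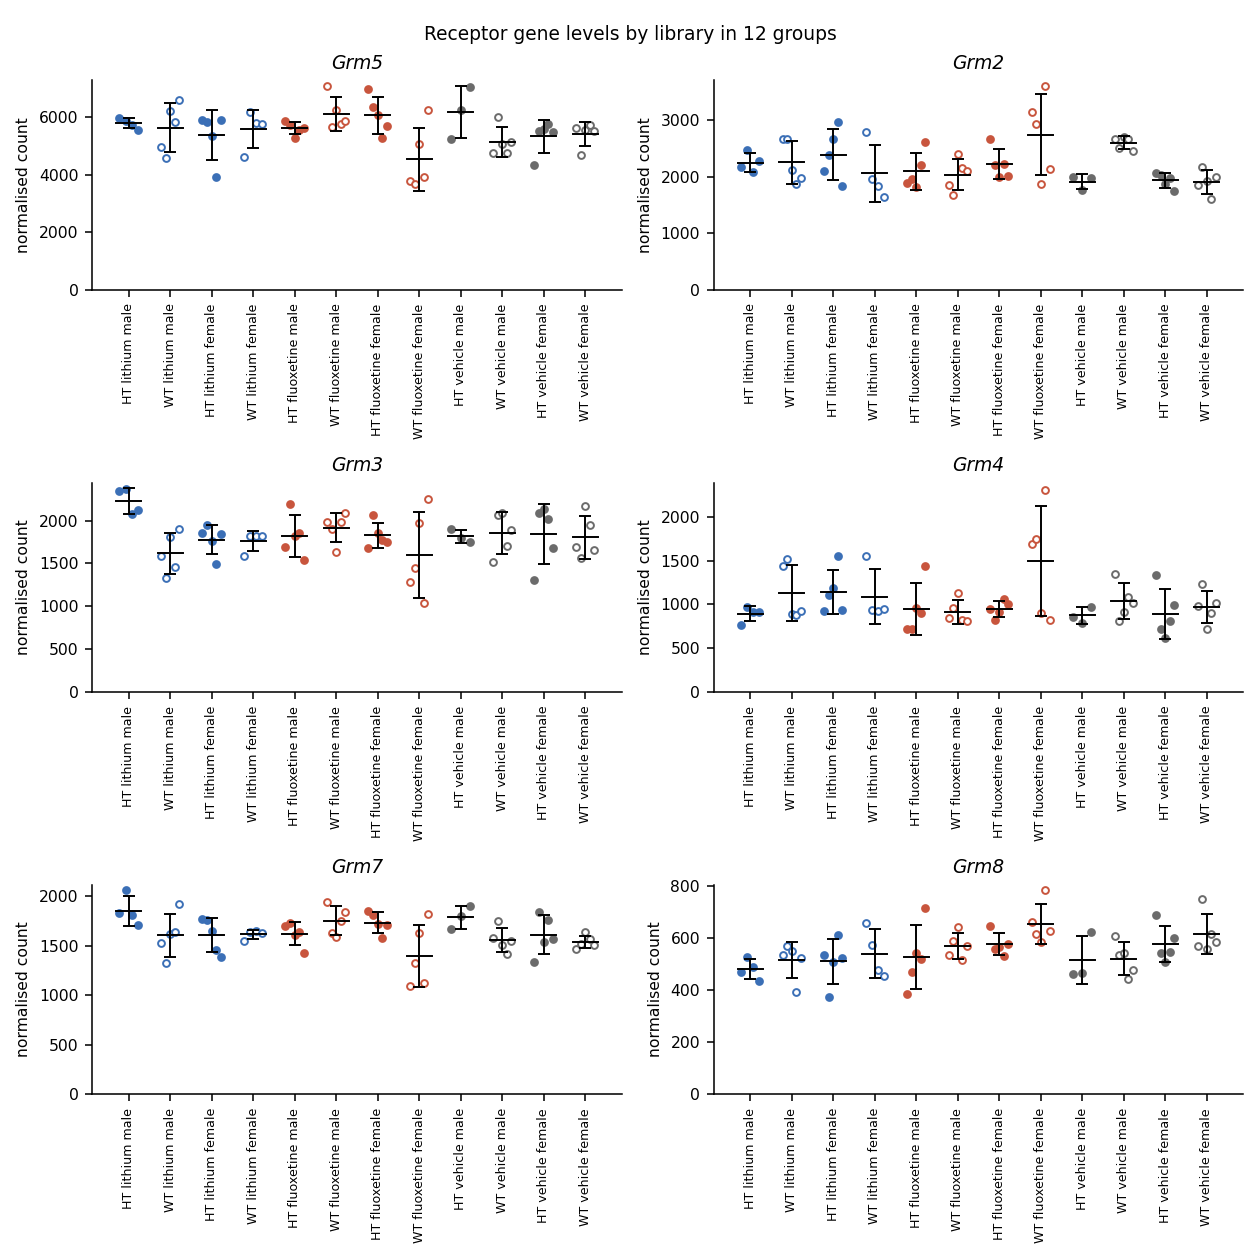
Normalised counts of the 6 receptor genes (vertical axes, from 0) in the 12 groups, each point 1 library and each bar the group mean with its SD; filled points are HT and open points WT, and lithium is blue, fluoxetine red and vehicle grey. The 5 WT fluoxetine females spread most in 5 of the 6 panels, with Grm2 between 1874 and 3598 there, while WT vehicle males hold Grm2 between 2445 and 2696.

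WT fluoxetine females stood at one extreme of the 12 group means for all 6 receptors, and HT lithium males or HT vehicle males stood at the other extreme for 5 of them. The group mean of Grm4 was highest in WT fluoxetine females (1496 ± 625, SD, n = 5), as were those of Grm2 (2737 ± 716) and Grm8 (653.5 ± 77.6). In the same females the means of Grm3 (1599 ± 501), Grm5 (4529 ± 1103) and Grm7 (1397 ± 316.5) were the lowest of the 12 groups. At the other end Grm3 and Grm7 were highest in HT lithium males (2228 ± 149 and 1851 ± 152, n = 4), where Grm8 was lowest (479.2 ± 38.2). HT vehicle males had the highest mean of Grm5 (6172 ± 908, n = 3) and the lowest of Grm4 (875.1 ± 93.4). The exception was Grm2, whose lowest mean was in WT vehicle females (1907 ± 210.4, n = 5). The order of the groups is a description with no test.

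After the group means were subtracted, the 6 genes fell into 2 sets of 3 that varied in opposite directions among libraries of the same group. Outside the pairs of Grm4, this opposition was not seen once the 14 libraries with the highest olfactory level were left out. Grm2, Grm4 and Grm8 formed one set and Grm3, Grm5 and Grm7 the other, so neither set follows the classes of the receptors. Within the first set the closest pair was Grm2 with Grm4 (Pearson r = 0.737, Spearman rho = 0.659; 56 libraries). Within the second set Grm3 with Grm7 had r = 0.760 (rho = 0.648) and Grm5 with Grm7, the main postsynaptic receptor and the active zone receptor, had r = 0.737 (rho = 0.713). Between sets Grm3 with Grm4 had the largest r of the 15 pairs in size, −0.864 (rho = −0.805). Permutation within groups (100000 draws, 2-sided) gave p-values adjusted over the 15 pairs of at most 4.29e-05 for these 4 values of r and at most 7.5e-05 for rho. Leaving out the 2 libraries farthest out on the first gene left r at 0.692 for Grm2 with Grm4, 0.682 for Grm3 with Grm7, 0.695 for Grm5 with Grm7 and −0.827 for Grm3 with Grm4. The weakest pair was Grm5 with Grm8 (r = −0.266, permutation p = 0.0748; rho = −0.206, permutation p = 0.167).

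Both sets followed the olfactory level of the library. Grm4 had r = 0.899 with the olfactory level (rho = 0.900), Grm2 had 0.643 (rho = 0.598) and Grm8 had 0.526 (rho = 0.536). Grm3 had r = −0.805 (rho = −0.792), Grm7 had −0.644 (rho = −0.592) and Grm5 had −0.613 (rho = −0.570). Over the 84 relations with library scores that were tested, the permutation p-values adjusted by Benjamini-Hochberg were at most 0.00115 for these 6 values of r and at most 0.000672 for rho. In these relations the olfactory level was on the log2 scale and, like the receptor genes, had its group means subtracted. The 2 libraries that deviated most from their group on that scale, up or down, need not be those with the highest level. Without them r was 0.885 for Grm4, 0.646 for Grm2, 0.536 for Grm8, −0.769 for Grm3, −0.594 for Grm7 and −0.571 for Grm5.

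In the 42 libraries outside the 14 with the highest olfactory level, r stayed at 0.772 for Grm4 and −0.618 for Grm3, whereas it was −0.123 for Grm2, −0.166 for Grm5, 0.299 for Grm8 and −0.329 for Grm7. Over these 42 libraries Grm2 thus did not keep the direction of its relation with the olfactory level, and the relation of Grm5 was weak. Leaving out the highest levels also narrows the range of the olfactory level, which by itself lowers r. The opposition of the 2 sets held for the pairs of Grm4 alone over those 42 libraries, where 6 of the 9 pairs between sets had a positive r: 0.396 for Grm5 with Grm8, 0.316 for Grm2 with Grm7, 0.285 for Grm7 with Grm8, 0.208 for Grm3 with Grm8, 0.170 for Grm2 with Grm5 and 0.166 for Grm2 with Grm3. The 3 that stayed negative were those of Grm4, at −0.632 with Grm3, −0.302 with Grm7 and −0.289 with Grm5. Within sets Grm5 with Grm7 had 0.672, whereas Grm2 with Grm4 had −0.0645.

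Markers of excitatory cortical neurons ran the other way. Their score had r = 0.861 with Grm7 (rho = 0.801), 0.857 with Grm3 (rho = 0.790), 0.725 with Grm5 (rho = 0.694) and −0.836 with Grm4 (rho = −0.777), with adjusted permutation p-values of at most 7.64e-05 for r and 8.4e-05 for rho. Without the 2 libraries that deviated most from their group in this score r was 0.820 for Grm7, 0.795 for Grm3, 0.679 for Grm5 and −0.790 for Grm4, and in the same 42 libraries it was 0.739 for Grm7, 0.574 for Grm3, 0.589 for Grm5 and −0.503 for Grm4. With Grm2 and Grm8 the score had r = −0.575 (rho = −0.441) and −0.352 (rho = −0.272) over all libraries. In the 42 libraries both turned positive, at 0.321 and 0.33. The astrocyte score had r = −0.631 with Grm7 (rho = −0.594) and −0.610 with Grm5 (rho = −0.567), with adjusted permutation p-values of at most 0.00018 for r and 0.000525 for rho; without the 2 farthest libraries these were −0.603 and −0.617, and in the 42 libraries −0.716 and −0.416. With Grm3, which astrocytes also make, it had r = −0.487 (rho = −0.468, adjusted permutation p = 0.00321 for r and 0.00509 for rho; r = −0.483 without the 2 farthest libraries and −0.299 in the 42). The 3 tested markers of cerebellar granule cells (Neurod1, Zic1 and Cbln1), cells that are not in the labelled tissue, had r = 0.865 with Grm4 (rho = 0.857) and 0.749 with Grm2 (rho = 0.658), with adjusted permutation p-values of at most 7.64e-05 for r and 0.00021 for rho. Without the 2 farthest libraries r was 0.865 and 0.71, and in the 42 libraries it was 0.536 for Grm4 and 0.0280 for Grm2. Neurod1 stayed between 227.7 and 480.6 normalised counts, Cbln1 ran between 207.1 and 954.4, and Zic1, which olfactory bulb cells also express, ran between 355.4 and 2364. Whether these scores have a part in the differences between groups was not tested.

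**Figure D2:**
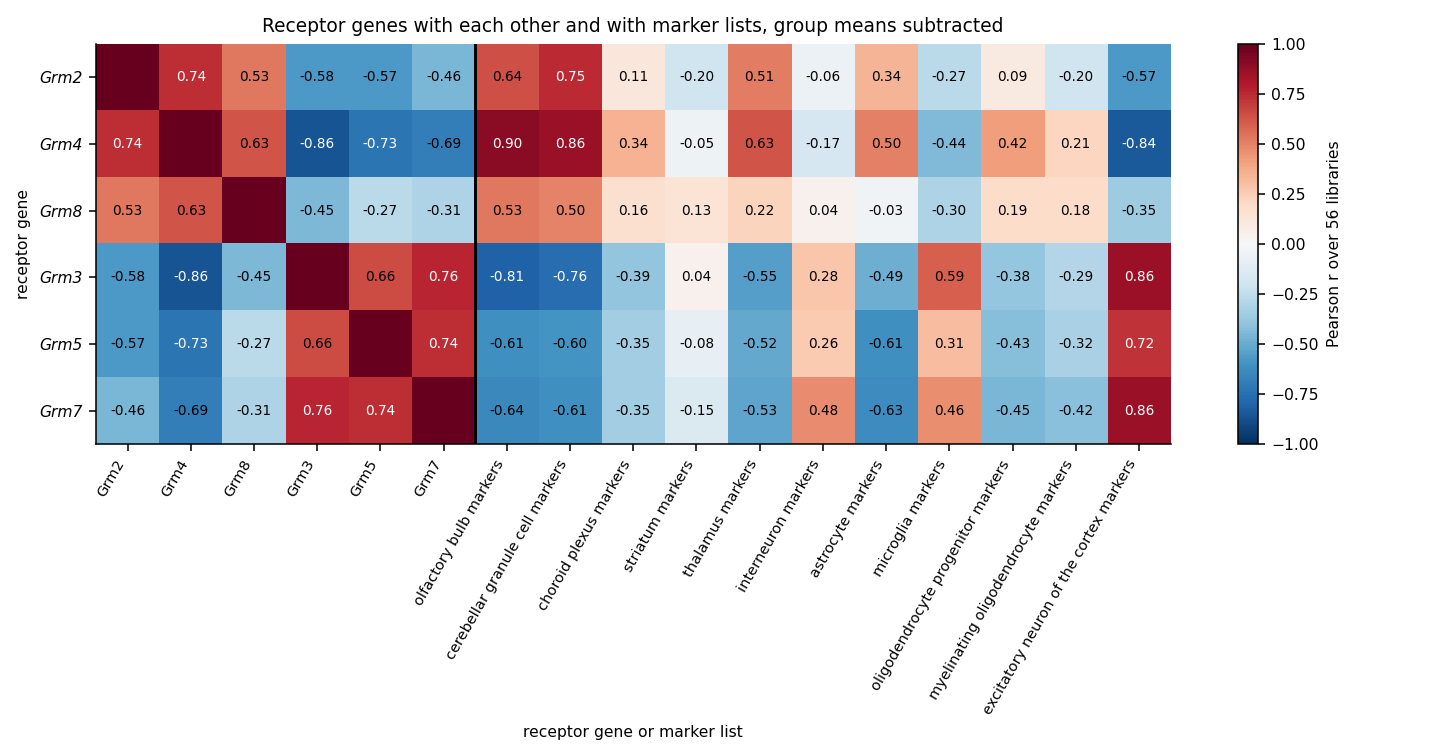
Pearson r over 56 libraries with the group means subtracted, for each receptor gene (rows) with the other receptor genes (left of the black line) and with the scores of 11 marker lists (right of it); red is positive and blue negative. Grm2, Grm4 and Grm8 are positive with the olfactory bulb markers (0.643, 0.899 and 0.526) and Grm3, Grm5 and Grm7 negative (−0.805, −0.613 and −0.644), with the opposite signs for markers of excitatory neurons of the cortex.

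The genes whose levels followed each receptor most closely were named by the 3 highest values of r over the same 56 libraries, as a description. Genes without a symbol, and those with a predicted, Riken, clone-numbered or pseudogene symbol, were passed over. For Grm4 these were Gdpd5 (r = 0.971, rho = 0.958), Fam20c (0.967, 0.957) and Dclk2 (0.965, 0.937). For Grm3 they were Zfp365 (0.911, 0.880), Ppp2r2c (0.905, 0.878) and Bend6 (0.905, 0.862), and for Grm7 Uhmk1 (0.905, 0.857), Neurod6 (0.884, 0.859) and Lgi1 (0.882, 0.861). Neurod6 is itself one of the 6 markers of excitatory cortical neurons used. Grm5 was closest to Sept7 (0.901, 0.898), Tlk1 (0.890, 0.901) and Ncoa7 (0.887, 0.868). Grm2 and Grm8 had looser neighbours, namely Grin2d (0.805, 0.756), Heyl (0.804, 0.687) and Gjd2 (0.799, 0.678) for Grm2, and H2afy (0.746, 0.659), Klhl1 (0.742, 0.71) and Aig1 (0.722, 0.658) for Grm8. All these values come from the same libraries, with their shared differences in depth and olfactory level.

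Fluoxetine, a serotonin reuptake inhibitor, was compared with vehicle in WT females, and here 1 of the 6 receptor genes passed the test. This was Grm2, the presynaptic group II receptor. It had 3143, 2933, 1874, 3598 and 2135 normalised counts in WT fluoxetine females, against 1850, 2175, 1914, 1600 and 1995 in WT vehicle females. Libraries 1, 2 and 4 of the fluoxetine females lay above all vehicle females, whereas libraries 3 and 5 lay inside their range. The log2 fold change was 0.49 ± 0.13 (SE; 95% interval 0.22 to 0.76), with a limma p adjusted over all 18026 genes of 0.0125. Of all genes tested, 12.1% passed in this comparison, so 1 of 6 is close to the background. At an unadjusted p under 0.05 limma had 3 of the 6 genes, and edgeR on the recovered reads called 2, Grm2 and Grm4. Leaving out a single fluoxetine female ended the call of Grm2 for library 2 (0.45, adjusted p = 0.0512) and library 4 (0.38, adjusted p = 0.0778), as did the compared groups alone (0.49, adjusted p = 0.153) and the correction for GC content and length (0.32, adjusted p = 0.176). The slope of gene level on transcript GC content was 0.0942 ± 0.0637 log2 units per 10 points of GC in WT fluoxetine females and −0.0644 ± 0.0788 in WT vehicle females (SD, n = 5 each).

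The 3 high fluoxetine libraries were also the 3 with much RNA of the olfactory bulb. Their olfactory levels were 4.06, 2.74 and 4.41, against 0.127 and 0.0769 in fluoxetine libraries 3 and 5 and 0.121 to 2.27 in the vehicle females. The summed level of the bulb markers, of which 5 of 5 were tested, ran from 250.5 to 14780 normalised counts in the fluoxetine females (median 9272) and from 360.2 to 7634 in the vehicle females (median 4286). Eomes was at 0 in at least 1 library of the study, whereas the other bulb markers were above 0 in every one. The summed markers of excitatory cortical neurons had a median of 53130 in the fluoxetine females and 57180 in the vehicle females. With the 14 most olfactory libraries left out, which leaves 2 fluoxetine females, the log2 fold change of Grm2 was 0.13 (limma adjusted p = 0.526). With the olfactory level as a linear covariate, chosen after seeing the data, it was 0.30 (adjusted p = 0.0144). On the log scale the fluoxetine and vehicle females had nearly the same mean olfactory level. A covariate on that scale could therefore hardly move the log2 fold change. Over the 14 alternative settings the value ran from 0.13 to 0.58 and the adjusted p from 0.000245 to 0.526, and 11 of the 14 passed.

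The other 5 receptors missed the threshold in WT females. Grm4 had 1691, 1752, 907.5, 2307 and 822 normalised counts in WT fluoxetine females, against 978.9, 1236, 723.2, 903.1 and 1019 in WT vehicle females (log2 fold change 0.53 ± 0.21, adjusted p = 0.0912). Grm5, the group I receptor, had 3793, 3667, 5052, 3899 and 6235 in the fluoxetine females, against 5613, 4693, 5548, 5718 and 5530 in the vehicle females (−0.29 ± 0.11, adjusted p = 0.0877). Fluoxetine libraries 1, 2 and 4, as for Grm2, stood apart: they were above every vehicle library for Grm4 and below every one for Grm5. Library 3 lay inside the vehicle range for both genes, and library 5 lay inside it for Grm4 and above it for Grm5, so the groups overlapped. Grm3 had 1284, 1447, 1973, 1040 and 2253 in the fluoxetine females, against 1694, 1558, 2171, 1954 and 1653 in the vehicle females (−0.22 ± 0.13, adjusted p = 0.285). Grm7 had 1097, 1321, 1624, 1124 and 1820, against 1471, 1514, 1634, 1567 and 1511 in vehicle females (−0.17 on the log2 scale, adjusted p = 0.259). Libraries 1, 2 and 4 were again below all vehicle females for both genes. Grm8 differed least, at 0.09 (adjusted p = 0.687), with 583.7 to 782.9 in the fluoxetine females and 557.3 to 747.3 in the vehicle females.

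**Figure D3:**
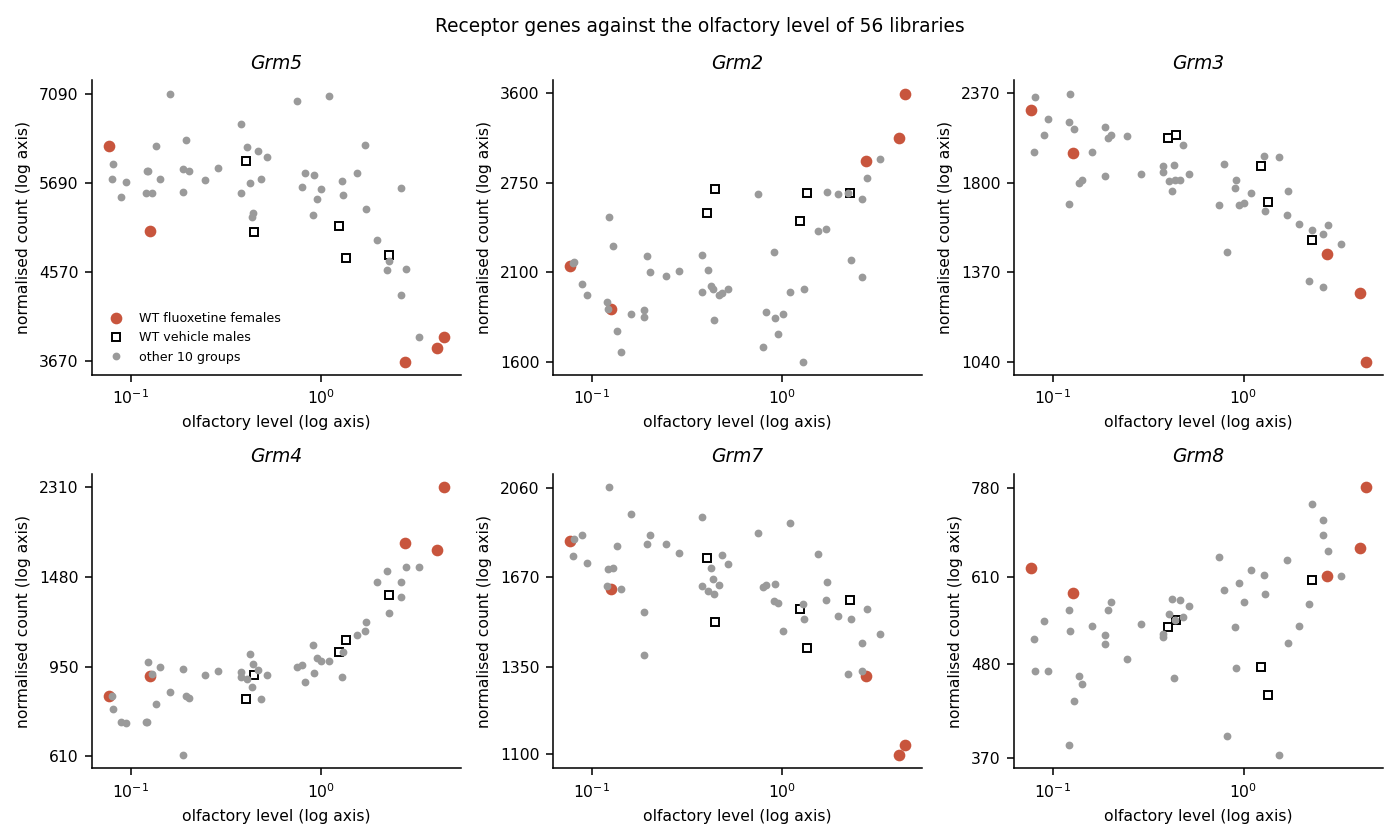
Normalised count of each receptor gene (vertical, log axis) against the olfactory level of the library (horizontal, log axis) for 56 libraries; red circles are WT fluoxetine females, open squares WT vehicle males and grey points the other groups. The WT fluoxetine females at olfactory levels of 2.74 to 4.41 hold high Grm2 and Grm4 (2933 to 3598 and 1691 to 2307) and low Grm3, Grm5 and Grm7. The WT vehicle males, at olfactory levels of 0.400 to 2.27, hold Grm2 between 2445 and 2696.

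In WT males the order of the Grm2 groups was turned round. WT fluoxetine males had 1848, 1672, 2390, 2156 and 2100 normalised counts of Grm2, against 2668, 2507, 2696, 2667 and 2445 in WT vehicle males. All fluoxetine males lay below all vehicle males, and the share of all genes that part in this way was not counted. The log2 fold change was −0.36 ± 0.13 (SE; limma unadjusted p = 0.00955, adjusted p = 0.163), so limma called 0 of the 6 genes. It had 2 genes at an unadjusted p under 0.05, Grm2 and Grm5, and edgeR called 0; 1.03% of all genes passed. Grm5 had 7091, 5637, 6252, 5744 and 5862 in the fluoxetine males, against 4762, 6007, 5045, 4733 and 5116 in the vehicle males (log2 fold change 0.25 ± 0.11, adjusted p = 0.265). One vehicle male lay inside the range of the fluoxetine males for Grm5.

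In these males the olfactory level was 0.160, 0.793, 1.68, 0.0796 and 0.201 under fluoxetine and 2.27, 0.400, 0.444, 1.35 and 1.24 under vehicle. Vehicle males 2 and 3, at 0.400 and 0.444, had 2507 and 2696 normalised counts of Grm2. Whether the olfactory level has a part in the difference between these male groups was not tested. Without the 14 most olfactory libraries, which removes 1 male of each group, the log2 fold change of Grm2 was −0.41 (limma adjusted p = 0.0089), past the threshold; over the 14 settings the adjusted p ran from 0.0089 to 0.322, and 2 passed.

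The difference between the sexes in the response of WT mice to fluoxetine was tested itself, as the change in males minus the change in females, and 2 of the 6 genes passed, against 7.74% of all genes. For Grm2 it was −0.85 ± 0.19 (SE; 95% interval −1.23 to −0.47, limma adjusted p = 0.00768) and for Grm5 0.54 ± 0.16 (0.22 to 0.86, adjusted p = 0.0319). Grm4 had −0.70 ± 0.30 (adjusted p = 0.132) and Grm7 0.33 ± 0.14 (adjusted p = 0.112). At an unadjusted p under 0.05 limma had 4 of the 6, and edgeR called 2. Without the 14 most olfactory libraries the difference was −0.54 for Grm2 (adjusted p = 0.221) and 0.22 for Grm5 (adjusted p = 0.487), and with a correction for GC content and length it was −0.63 (adjusted p = 0.151) and 0.36 (adjusted p = 0.279). Of the 14 settings 12 passed for Grm2 (adjusted p from 5.65e-05 to 0.221) and 10 for Grm5 (0.000255 to 0.487). For Grm5 leaving out any one of 10 single libraries also ended the call, namely fluoxetine females 1, 2 and 4, vehicle females 1 and 4, fluoxetine males 1 and 3 and vehicle males 1, 3 and 4, all WT (adjusted p between 0.0504 and 0.0853).

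**Figure D4:**
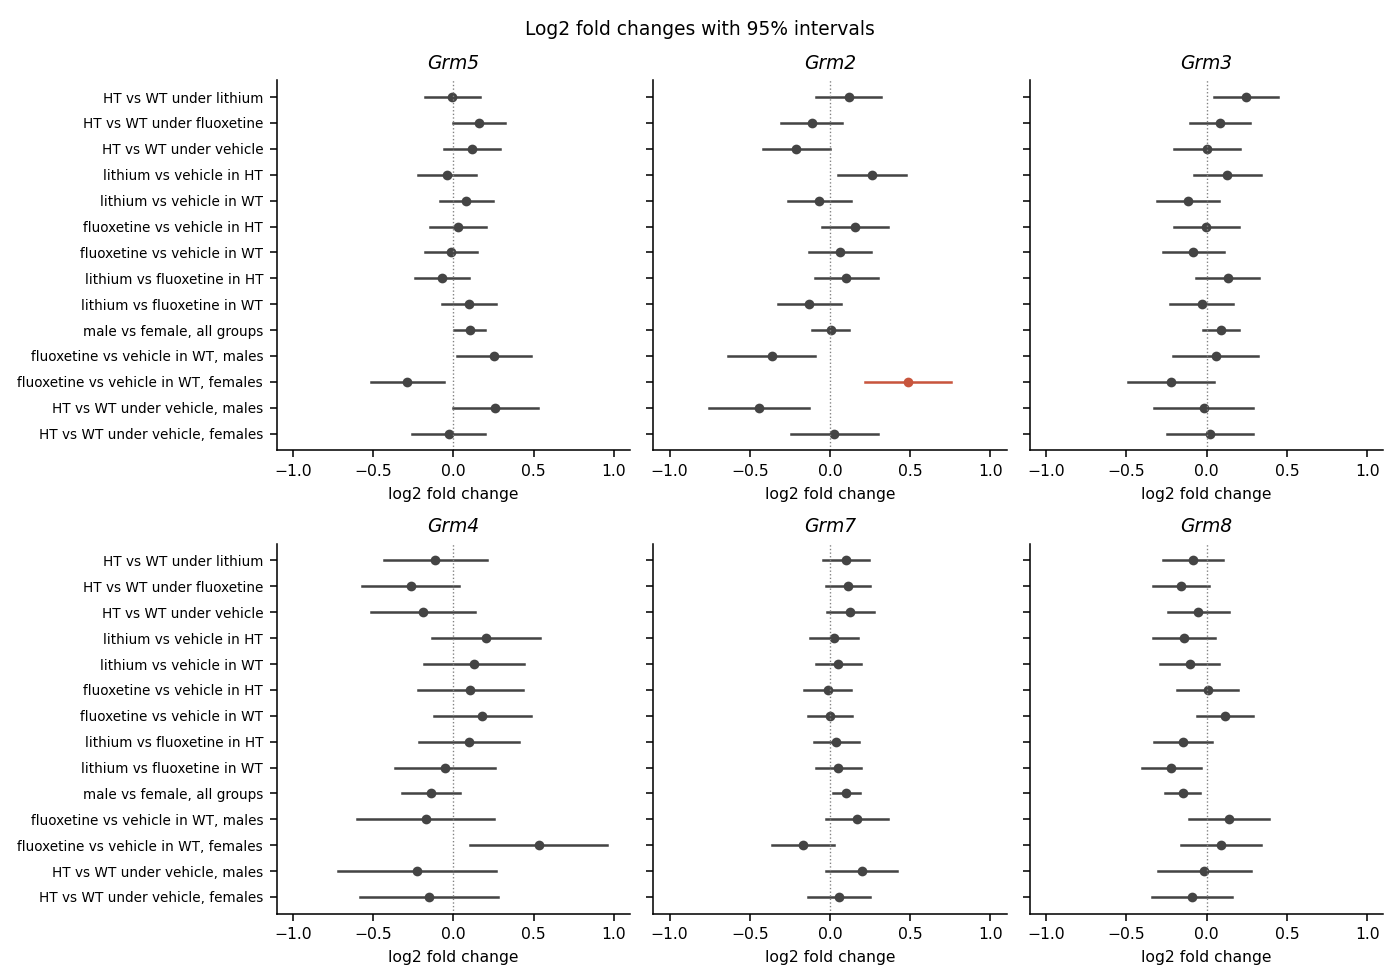
Log2 fold change of each receptor gene with its 95% interval in 14 comparisons, positive where the group named first is higher; red marks a limma adjusted p under 0.05. Only Grm2 in WT females under fluoxetine is marked, at 0.49, and the interval of Grm2 in HT against WT vehicle males lies below 0, from −0.76 to −0.13.

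With the sexes averaged, fluoxetine against vehicle called 0 of the 6 receptor genes in WT mice, where 5.18% of all genes passed (limma; 0 at an unadjusted p under 0.05, and 0 by edgeR). The largest change was that of Grm4 (log2 fold change 0.18 ± 0.15), and the opposite values of the sexes left Grm2 at 0.06. In HT mice limma also called 0 of 6, with 0 at an unadjusted p under 0.05 and 0 by edgeR, and 0% of all genes passed. The 95% intervals of the 6 genes there reached from −0.22 to 0.43, with Grm2 at 0.16 ± 0.10 (adjusted p = 0.83). HT fluoxetine females had 2655, 2202, 1995, 2230 and 2010 normalised counts of Grm2, against 2068, 2023, 1873, 1972 and 1741 in HT vehicle females. The 2 groups overlapped.

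Split by sex, HT mice under fluoxetine gave 0 calls in females and 0 in males by limma, against 0.727% and 0% of all genes. Each had 0 genes at an unadjusted p under 0.05 and 0 by edgeR. All 6 log2 fold changes were above 0 in HT females, led by Grm2 and Grm5 at 0.19 each, and in HT males the largest was Grm7 at −0.14. The difference between the sexes in HT mice called 0 of 6 (0.0277% of all genes; 0 at an unadjusted p under 0.05; edgeR 0), with Grm5 at −0.32 ± 0.17 (adjusted p = 0.806). The fluoxetine effect in HT minus that in WT called 0 as well (0% of all genes; 0 at an unadjusted p under 0.05; edgeR 0), and its largest value was −0.11 for Grm8.

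Lithium is a mood stabiliser that acts on inositol phosphate turnover and on glycogen synthase kinase. Under the setting reported no receptor was called for it, and with only 6 genes that count is close to the shares of all genes given next. In WT mice limma called 0 of the 6 genes (0 at an unadjusted p under 0.05, and edgeR 0), against 11.7% of all genes. Without the 14 most olfactory libraries Grm2 passed, at −0.20 (adjusted p = 0.0387), against −0.07 with all libraries. The largest change was again that of Grm4 at 0.13 ± 0.16, the smallest adjusted p was 0.499, and the 95% intervals of all 6 lay between −0.31 and 0.44. In HT mice limma also called 0, with 1 gene at an unadjusted p under 0.05 and 0 by edgeR, against 9.77% of all genes.

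That gene was Grm2. HT lithium females had 2105, 2378, 2671, 2957 and 1833 normalised counts of it, against 2068, 2023, 1873, 1972 and 1741 in HT vehicle females, and HT lithium males had 2164, 2476, 2073 and 2270, against 1995, 1758 and 1977 in HT vehicle males. The female groups overlapped through lithium library 5, while all HT lithium males lay above all HT vehicle males. No share of all genes that part in this way was counted for these small male groups. Over both sexes the log2 fold change was 0.26 ± 0.11 (SE; 95% interval 0.05 to 0.47, unadjusted p = 0.0176, limma adjusted p = 0.113). The 3 lithium females with most Grm2 had olfactory levels of 1.54, 1.71 and 3.23, against 0.288 and 0.188 in the other 2; in the lithium males, the group with the lowest levels, olfactory levels were 0.0807 to 0.246, against 0.137 to 1.09 in the vehicle males. The adjusted p of Grm2 was 0.0111 with the olfactory level as a covariate on the log scale and 0.00275 with array weights, both past the threshold. It was 0.177 without the 14 most olfactory libraries, at a log2 fold change of 0.14, and 0.587 at most over the 14 settings, of which 3 passed.

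Lithium was also followed within each sex. In WT females limma called 0 of 6 (6.62% of all genes passed; 0 receptors at an unadjusted p under 0.05; edgeR 0), with Grm8 changed most, at −0.19. In WT males it called 0 as well (2.3% of all genes; 0 at an unadjusted p under 0.05; edgeR 0), with Grm2 at −0.22 (adjusted p = 0.454) and Grm3 at −0.20. Without the 14 most olfactory libraries Grm2 passed there, at −0.38 (adjusted p = 0.0138). In HT females it called 0 (10.5% of all genes; 1 receptor at an unadjusted p under 0.05; edgeR 0), with Grm2 at 0.29 ± 0.13 (adjusted p = 0.177) and Grm4 at 0.38 ± 0.21 (adjusted p = 0.271). HT lithium females had 928.8, 1111, 1186, 1552 and 937.5 normalised counts of Grm4, against 1338, 721.7, 613.5, 808.3 and 992 in HT vehicle females, and these groups overlapped.

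HT males under lithium had 0 calls by limma too (0.0166% of all genes; 0 receptors at an unadjusted p under 0.05; edgeR 0). Grm3, the group II receptor shared with astrocytes, had 2344, 2368, 2078 and 2124 normalised counts in HT lithium males, against 1900, 1800 and 1747 in HT vehicle males. These small groups did not overlap, and the share of all genes that part in this way was not counted. The log2 fold change was 0.29 ± 0.16 (limma adjusted p = 0.508). The difference between the sexes in the lithium effect called 0 of 6 in WT mice (0% of all genes; 0 at an unadjusted p under 0.05; edgeR 0) and 0 of 6 in HT mice (0.172% of all genes; 0 at an unadjusted p under 0.05; edgeR 0). The lithium effect in HT minus that in WT called 0 of 6 (0.0166% of all genes; 1 at an unadjusted p under 0.05; edgeR 0). That 1 gene was Grm2, at 0.33 ± 0.14 (unadjusted p = 0.028, adjusted p = 0.471), and it passed without the 14 most olfactory libraries, at 0.34 (adjusted p = 0.0372).

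Set directly against fluoxetine, lithium called 0 of 6 receptors in WT mice (limma; 0.233% of all genes; 1 at an unadjusted p under 0.05; edgeR 0) and 0 of 6 in HT mice (0.555% of all genes; 0 at an unadjusted p under 0.05; edgeR 0). Grm8 had the lowest p of the 6 in both, with a log2 fold change of −0.22 ± 0.09 in WT mice (unadjusted p = 0.0187, adjusted p = 0.358) and −0.15 in HT mice (adjusted p = 0.503). WT lithium males had 533.2, 567.3, 551, 393.5 and 521.7 normalised counts of Grm8 and WT fluoxetine males 534, 588.6, 640.4, 514.6 and 569.5. The males' ranges overlapped, as did those of WT females, where lithium gave 454.9 to 656.2 and fluoxetine 583.7 to 782.9.

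The Shank3 delta C allele itself was compared with WT under each treatment, which asks whether the receptors tied to the Shank scaffold or facing it across the synapse change when a copy of it is altered. Under vehicle limma called 0 of 6 receptors (0% of all genes; 1 at an unadjusted p under 0.05; edgeR 0). Under fluoxetine it called 0 (0% of all genes; 1 at an unadjusted p under 0.05; edgeR 0), and likewise under lithium (0% of all genes; 1 at an unadjusted p under 0.05; edgeR 0). Grm5, the receptor that Homer links to Shank, had a log2 fold change of 0.12 ± 0.09 in HT vehicle mice and 0.16 ± 0.08 in HT fluoxetine mice (adjusted p = 0.444) against WT mice under the same treatment. The 95% intervals of the 6 genes under vehicle lay between −0.52 and 0.29.

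Under lithium the gene with the lowest p between genotypes was Grm3, at 0.24 ± 0.10 (unadjusted p = 0.0181, limma adjusted p = 0.427). HT lithium males had 2344, 2368, 2078 and 2124 normalised counts, against 1585, 1331, 1810, 1457 and 1896 in WT lithium males. All HT males lay above all WT males, and how many of all genes part in this way was not counted. In females the ranges of Grm3 overlapped, with 1493 to 1951 in HT lithium females and 1581 to 1818 in WT lithium females. The olfactory level of these males, with which Grm3 had r = −0.805 over all libraries, was 0.0807, 0.123, 0.246 and 0.129 in the HT lithium males and 1.95, 2.20, 0.408, 0.823 and 0.378 in the WT lithium males. Its part in this difference was not tested.

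In vehicle males the genotypes were apart for Grm2. HT vehicle males had 1995, 1758 and 1977 normalised counts, against 2668, 2507, 2696, 2667 and 2445 in WT vehicle males, with no overlap. How many of all genes part in the same way between these small groups was not counted. The log2 fold change was −0.44 ± 0.16 (SE; 95% interval −0.76 to −0.13, unadjusted p = 0.00621, limma adjusted p = 0.224), so limma called 0 of 6 (0.261% of all genes; 1 at an unadjusted p under 0.05; edgeR 0). It was past the threshold in 3 of the alternative settings: adjusted p = 0.0178 with array weights, 0.0389 with the compared groups alone and, once the 14 most olfactory libraries were left out, 0.0125 (log2 fold change −0.43). The highest adjusted p over the 14 settings was 0.499.

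WT vehicle males had the second highest group mean of Grm2 (2597 ± 113, n = 5), above WT vehicle females (1907 ± 210.4, n = 5), HT vehicle females (1935 ± 131, n = 5) and HT vehicle males (1910 ± 132, n = 3). The olfactory level was 0.431, 0.137 and 1.09 in HT vehicle males and 0.400 to 2.27 in WT vehicle males. The slope of gene level on transcript GC content was −0.0682 ± 0.0753 log2 units per 10 points of GC in HT vehicle males and 0.0647 ± 0.0558 in WT vehicle males (SD). With the correction for GC content and length the log2 fold change of Grm2 was −0.35 (adjusted p = 0.499).

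Grm5 in vehicle males had 5234, 6234 and 7047 normalised counts in HT mice, against 4762, 6007, 5045, 4733 and 5116 in WT mice (0.26 ± 0.13, adjusted p = 0.408), and these overlapped. In vehicle females limma called 0 of 6 between genotypes (0% of all genes; 0 at an unadjusted p under 0.05; edgeR 0), with Grm4 changed most at −0.15. The genotype difference in males minus that in females called 0 (0% of all genes; 1 at an unadjusted p under 0.05; edgeR 0), with Grm2 at −0.47 ± 0.21 (unadjusted p = 0.0265, adjusted p = 0.516). A genotype effect on Grm2 in males that differs from that in females was therefore not shown.

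**Figure D5:**
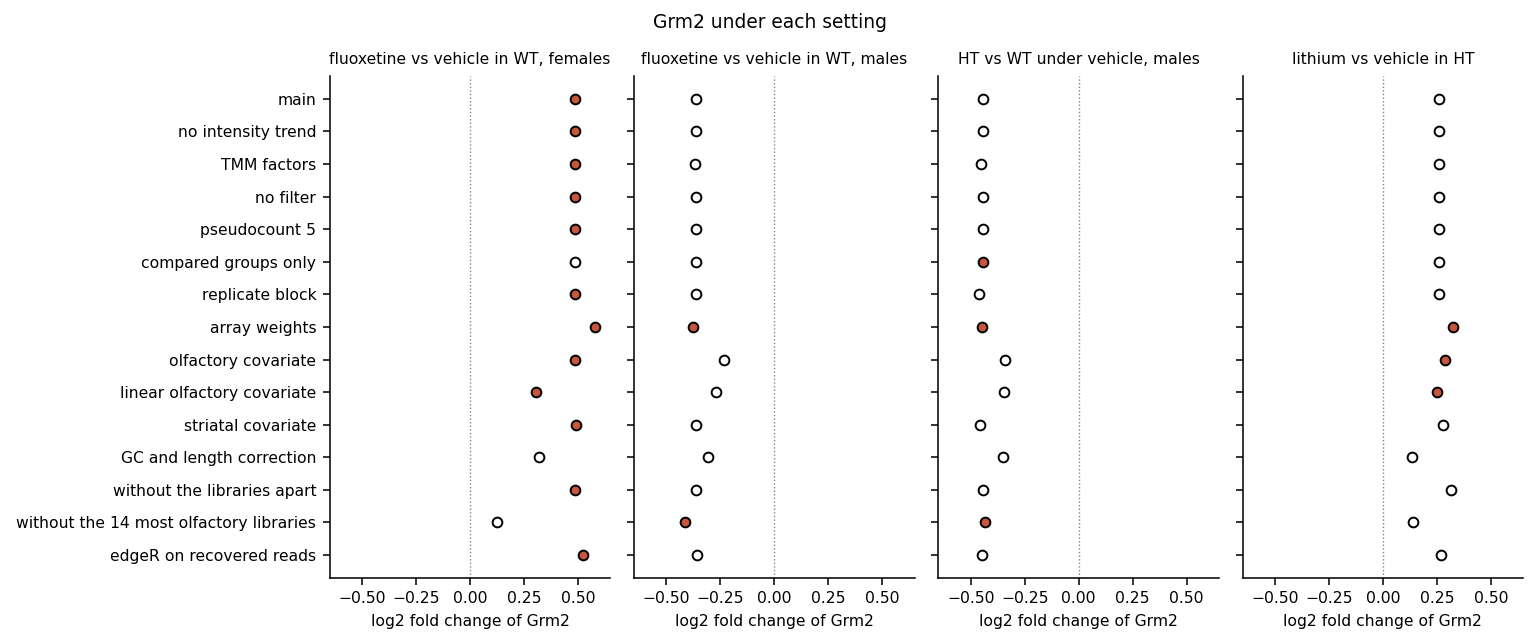
Log2 fold change of Grm2 in 4 comparisons (panels) under the setting reported and 14 alternative settings (rows); red filled points have an adjusted p under 0.05. Under fluoxetine in WT females the value lies between 0.13 and 0.58 and is lowest without the 14 most olfactory libraries, whereas in HT against WT vehicle males it lies between −0.46 and −0.34.

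Males were compared with females over all 6 combinations of genotype and drug, with 3 genes at an unadjusted p under 0.05, 0 calls by limma and 0 by edgeR (0.283% of all genes passed). Grm8 was lower in males by a log2 fold change of −0.15 ± 0.05 (unadjusted p = 0.0067, adjusted p = 0.229). Its group mean was below that of females of the same genotype and drug in all 6 combinations, for example 479.2 ± 38.2 in HT lithium males against 510.3 ± 86.5 in HT lithium females, and 569.4 ± 49.2 in WT fluoxetine males against 653.5 ± 77.6 in WT fluoxetine females. The ranges of the sexes overlapped in all 6 pairs; HT lithium males, for instance, had 433.6 to 525.7 and HT lithium females 373.5 to 612.5. Grm7 had 0.10 ± 0.04 (unadjusted p = 0.0164, adjusted p = 0.28) and Grm5 0.10 ± 0.05 (adjusted p = 0.366).

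Genes that act with these receptors were followed in 4 lists, and they too were chosen with earlier results of these data known. The list of group I signalling partners (18 genes, among them the Gq subunits, the phospholipase C beta isoforms and the regulators of G protein signalling) had 0 calls in either direction for lithium in WT or HT mice and for fluoxetine in WT mice with the sexes averaged, by limma. Its medians were 0.04, 0.03 and 0.01 on the log2 scale, where all genes had −0.00, 0.00 and −0.01. In WT females under fluoxetine 1 of the 18 rose and 3 fell, where 12.1% of all genes were called; the 4 are named here after their values were seen. Plcb3, a phospholipase C, had 0.28 ± 0.09 (adjusted p = 0.0416), while Rgs2 had −0.36 ± 0.11 (adjusted p = 0.0216), Rgs4 −0.48 ± 0.15 (adjusted p = 0.0278) and Cnr1 −0.38 ± 0.13 (adjusted p = 0.0426). Rgs2 and Rgs4 end G protein signals and Cnr1 is the cannabinoid receptor that answers group I signalling across the synapse. These fluoxetine females are the group with the high olfactory level given above. Without the 14 most olfactory libraries Rgs4 had 0.12 and Cnr1 0.11 on the log2 scale, with the opposite sign and no call, and leaving out single libraries ended the call of each of the 4 genes (4 to 7 of 10 libraries, adjusted p between 0.0508 and 0.267).

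The list of Gi/o partners (20 genes), through which groups II and III signal, had 3 genes that rose and 0 that fell under lithium in WT mice, where 11.7% of all genes were called. Adcy6 and Adcy9, adenylyl cyclases that make cyclic AMP, rose by 0.22 ± 0.04 (limma adjusted p = 5.65e-05) and 0.43 ± 0.11 (adjusted p = 0.00604), and Kcnj6, a G protein-gated potassium channel, rose by 0.28 ± 0.10 (adjusted p = 0.0465). In HT mice, where 9.77% of all genes were called, 2 rose and 1 fell under lithium: Adcy6 by 0.22 ± 0.04 (adjusted p = 0.000338), Kcnj6 by 0.31 ± 0.10 (adjusted p = 0.0454) and the inhibitory subunit Gnai1 by −0.24 ± 0.06 (adjusted p = 0.00511). Under fluoxetine in WT mice, with 5.18% of all genes called, 1 of the 20 rose, Adcy6 by 0.19 ± 0.04 (adjusted p = 0.00135). The medians of the list were −0.03, 0.03 and −0.02, and with lithium and fluoxetine set against the same vehicle mice the calls of Adcy6 in WT mice are not independent. The calls of Adcy6 and Gnai1 in HT mice ended under the correction for GC content and length, as did both of Kcnj6. Leaving out any of 13 of 19 libraries in WT mice (adjusted p up to 0.122) or of 10 of 17 in HT mice (up to 0.165) also ended the call of Kcnj6.

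Scaffolds and receptor partners were the longest list (23 genes). Under lithium in WT mice 6 rose and 1 fell, against 11.7% of all genes called, among them Homer1, which links group I receptors to Shank (0.45 ± 0.13, limma adjusted p = 0.02), the receptor-binding protein gene Ncdn (0.26 ± 0.06, adjusted p = 0.00399), Elfn2, which binds group III receptors across the synapse (0.23 ± 0.07, adjusted p = 0.0164) and, falling, the calmodulin gene Calm2 (−0.26 ± 0.06, adjusted p = 0.00298). Under lithium in HT mice 6 rose and 2 fell (9.77% of all genes), led by Shank1 (0.52 ± 0.09, adjusted p = 0.000151), Ncdn (0.33 ± 0.07, adjusted p = 0.000792) and Shank2 (0.33 ± 0.07, adjusted p = 0.00187), while the ubiquitin ligase gene Siah1a fell (−0.23 ± 0.06, adjusted p = 0.00963). Shank3, the gene of the allele, rose there too (0.34 ± 0.09, adjusted p = 0.0127), and had 0.06 ± 0.09 under lithium in WT mice (adjusted p = 0.751). Under fluoxetine in WT mice 4 rose and 0 fell (5.18% of all genes): Elfn2 (0.24 ± 0.06, adjusted p = 0.017), Elfn1 (0.25 ± 0.07, adjusted p = 0.0297), Arrb1 (0.12 ± 0.04, adjusted p = 0.0374) and Shank1 (0.27 ± 0.08, adjusted p = 0.039). The list medians were 0.04, 0.13 and 0.05. All these values are gene totals, so the forms of a gene such as Homer1 are not told apart.

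Several of these calls depended on the setting. The correction for GC content and length ended those of Calm2 and Elfn2 under lithium in WT mice, of Shank2 and Siah1a under lithium in HT mice and of all 4 genes under fluoxetine. Of the 20 libraries, leaving out single ones ended the fluoxetine calls of Arrb1 (11 libraries, adjusted p up to 0.1), Shank1 (12, up to 0.0958), Elfn1 (5, up to 0.0666) and Elfn2 (WT fluoxetine female 2, 0.0503). The call of Homer1 under lithium ended without WT lithium female 3 (adjusted p = 0.0535) and that of Siah1a without HT vehicle male 3 (0.0717). Ncdn under lithium in both genotypes, Shank1 under lithium in HT mice, and Adcy6, Adcy9 and Slc1a1 under lithium in WT mice passed under every setting tried. Homer1 also rose in WT males under fluoxetine, by 0.86 ± 0.18 (adjusted p = 0.0126), a gene and comparison singled out after the values were seen; 5 of 10 single libraries ended that call when left out (adjusted p up to 0.0747).

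The list of glutamate and N-acetylaspartylglutamate handling (14 genes), which sets the ligands of these receptors, had 1 call under lithium in each genotype, where 11.7% (WT) and 9.77% (HT) of all genes were called, and 0 under fluoxetine in WT mice (5.18%). Slc1a1, a neuronal glutamate transporter, rose by 0.18 ± 0.04 in WT mice (limma adjusted p = 0.00248) and Glul, the glutamine synthetase of astrocytes, by 0.20 ± 0.05 in HT mice (adjusted p = 0.0143). The call of Glul ended without the 14 most olfactory libraries and with the compared groups alone. Between HT and WT vehicle mice 0 genes of any of the 4 lists passed, where 0% of all genes did.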

How the data were processed

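Per the labels' protocols, RNA from mouse prefrontal cortex was made into stranded mRNA libraries. The submitters' processing notes name Salmon 0.11.2, R 3.6.0, DESeq2 1.19.11 and the GRCm38 build, with no role or order given. The deposited table holds 1 signal value per gene and library, gene counts that the authors divided by a size factor, here called normalised counts. In each column 100% of the values were whole multiples of 1 step, within 1e-06, and dividing by that step recovered whole reads. Of the 59 columns, 3 matched no label and were not used, and 1 of the 57 labelled samples, a WT lithium female, had no matching column, which left 56 libraries; 18077 of 18088 identifiers matched a symbol. No pair of libraries of a group looked like repeats of 1 library (chi-square per degree of freedom was 4.71 or more in the 105 pairs).

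Log2(value + 1) of the 18026 genes that reached 10 in 3 or more libraries was fitted with limma 3.58.1 in R 4.3.3 with an intensity trend. The fit had 1 mean for each of the 12 groups and 44 residual degrees of freedom, and 27 comparisons were taken from it. P-values were adjusted over all genes by Benjamini-Hochberg, with a threshold of 0.05. A fold change on this scale understates the change of low genes. As the labels name no litters, the p-values measure the spread between mice. Standard errors are limma's, and 95% intervals use its degrees of freedom. The script was tested on simulated data: for lithium in WT mice it recovered 75% of changes of 0.5 and 88% of changes of 1 on the log2 scale, with 10 false among 173 calls, and for HT against WT vehicle males 46% and 79%, with 11 false among 136.

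The members and all lists were chosen with earlier results of these data known. Named genes were the 6 receptors, up to 4 called members of each list with the smallest p (up to 2 where none was called), and the 3 genes with the highest r to each receptor. That last choice left out genes without a symbol and those with a predicted, Riken, clone-numbered or pseudogene symbol. Relations between libraries used deviations from group means, permuted within groups 100000 times (smallest possible p 1e-05). The 2 farthest libraries of a relation were those with the largest such deviations, up or down, in the score or in the first gene. Alternatives were edgeR 4.0.16 on the recovered reads, TMM factors, no intensity trend, no filter, a pseudocount of 5, the compared groups alone, a replicate block, array weights, olfactory and striatal covariates, a correction for GC content and length, and leaving out the 2 libraries more than 5 median absolute deviations apart, the 14 most olfactory libraries or each library in turn. The numbers of the replicates were checked for pairing between groups: 14 of 79 pairs of same-numbered samples had r over 0.1 (median −0.0157, range −0.333 to 0.452). Pairs with different numbers were not computed as a reference, so this check cannot exclude pairing. The samples were treated as unpaired. Sequences and promoters are from RefSeq (GRCm38.p6); transcript lengths and GC content are those of the longest annotated transcript.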

Additional observations from a re-analysis of the deposited data

Results flagged for a closer look

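Within groups of 4 or 5 libraries, 6 single values lay far from the rest of their group (the gap to the nearest library, as a share of the range, exceeded Dixon's critical value). Over the 66 combinations of gene and group tested, chance gives such a value in about 1 of 20. Grm5 stood apart in 3 female groups, each time low. It was 3899 normalised counts in HT lithium female 4, where the others had 5334 to 5910, 4321 in HT vehicle female 1, the library with 52730 summed normalised counts of choroid plexus markers, where the others had 5477 to 5752, and 4693 in WT vehicle female 2, where the others had 5530 to 5718. WT lithium female 1 stood apart for 2 receptors, with 1581 normalised counts of Grm3 (others 1815 to 1818) and 1558 of Grm4 (others 920.7 to 948.3). Those 4 libraries are all among the 14 with the highest olfactory level, at 3.23, 2.60, 2.27 and 2.77. The last value was 393.5 of Grm8 in WT lithium male 4 (others 521.7 to 567.3), whose olfactory level was 0.823. The part of the olfactory level and of the choroid plexus RNA in these values was not tested.

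The response of WT mice to fluoxetine differed between the sexes for 2 receptors, by a test of the difference itself. The change in males minus that in females was −0.85 ± 0.19 for Grm2 (limma adjusted p = 0.00768) and 0.54 ± 0.16 for Grm5 (adjusted p = 0.0319), on the log2 scale. For Grm2 all 5 WT fluoxetine males were below all 5 WT vehicle males, and 3 of 5 WT fluoxetine females were above all 5 WT vehicle females. The share of all genes placed in this way was not counted. Neither difference passed without the 14 most olfactory libraries, which leaves 2 WT fluoxetine females.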

How the results depend on the processing

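The log2 fold changes of the 6 receptors were recomputed 5154 times over 27 comparisons, 2892 of them with a single library left out; 5094 kept their side of the threshold and their direction where called, 38 moved past it, 21 fell short of it and 1 turned its sign; 349 uncalled values also turned their sign. The pairing of replicates by number moved no count of calls: with the replicate block Grm2 under fluoxetine in WT females had 0.49 (adjusted p = 0.0129). Counts of receptors called moved as follows, against 1 under fluoxetine in WT females, 2 for its difference between the sexes in WT mice and 0 elsewhere. With the compared groups alone they were 0, 1 and, for HT against WT vehicle males, 1. With array weights they were 3 and 4, with 2 for HT against WT under fluoxetine, 1 for lithium in HT mice, 2 for lithium in HT females, 1 for HT against WT vehicle males and 1 for fluoxetine in WT males. These weights lean on single libraries. WT fluoxetine female 2 had 2.43, against at most 0.421 in the rest of its group. HT lithium female 3 had 2.452, HT vehicle female 4 had 2.485 and WT vehicle male 5 had 2.616. With the olfactory covariate on the log scale the counts of calls were 4 for fluoxetine in WT females, 2 for fluoxetine in WT mice and 2 for lithium in HT mice. With the linear one, added after seeing the data, they were 2 for lithium in HT mice, 1 for lithium in HT females and 1 for the difference between the sexes. The correction for GC content and length left 0 and 0. Without the 14 most olfactory libraries both were 0, with 1 each for fluoxetine in WT mice (Grm7) and, all Grm2, lithium in WT mice, the lithium effect in HT minus WT, HT against WT vehicle males, and lithium and fluoxetine in WT males. By edgeR fluoxetine in WT females had 2. Single left-out libraries gave 0 to 5 for fluoxetine in WT females and 1 to 4 for its difference between the sexes. Over all genes, fluoxetine in WT females called 2189 genes, against 12 with the compared groups alone and 834 without the 14 libraries, and its difference between the sexes called 1395, against 378 and 0.

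Of single genes, without the 14 libraries Grm7 under fluoxetine in WT mice turned to 0.18 (adjusted p = 0.0493), and under fluoxetine in WT females Rgs4 turned to 0.12 and Cnr1 to 0.11. Grm2 under fluoxetine in WT females passed with the olfactory covariates (0.49 on the log scale and 0.30 linear) and by edgeR (0.52). It missed with the correction for GC content and length (0.32, adjusted p = 0.176). The log covariate could hardly move the value, since WT fluoxetine and vehicle females had nearly the same mean olfactory level on that scale. Grm2 in HT against WT vehicle males ranged from −0.48 to −0.39 with single libraries left out (adjusted p 0.167 to 0.567). The cause of these changes was not tested. With 3 HT vehicle males the intervals are wide, and depth limits none of the 6 receptors, whose counting error is at most 4.32% at the median.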
